A study of Mus musculus with 3 samples.

Results

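The genes described here are 38 collagen genes of the mouse, the fibrillar, basement membrane, FACIT, transmembrane and related chains outside the cartilage set. They were chosen by name: the gene lists hold 44 genes with a Col symbol, and the 6 not included are Col2a1, Col9a1, Col9a2 and Col9a3 of cartilage, and Col6a4 and Col20a1. They stand among 27040 gene identifiers shared by the 3 libraries. The rule used gene names and no measured value, but it was set with earlier results of these data known. All 38 are listed in every library, and 37, 36 and 38 of them had at least 1 unique molecular identifier (UMI, a tag that marks 1 captured RNA molecule) in the kept cells of the Cxcl12-GFP P6, Cxcl12-creER P6 and P25 libraries.

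The cells came from the dental pulp and periodontium of mandibular molars, were sorted by fluorescence and were read by droplet 3' RNA sequencing, with 1 library in each of 3 groups. The Cxcl12-GFP P6 library came from day 6 mice of genotype Cxcl12-GFP/+, sorted for GFP+ cells. The Cxcl12-creER P6 library held tdTomato+ cells of Cxcl12-creER; R26R(tdTomato/+) mice at day 6, in which the Cxcl12 promoter drives a tamoxifen-dependent Cre that switches on tdTomato. The P25 library held GFP+, tdTomato+ and double-positive cells of Col1a1-GFP; Cxcl12-creER; R26R(tdTomato/+) mice at day 25. The reporter alleles and sorts differ between the libraries and the ages too, so a difference between libraries cannot be assigned to age, genotype, sort or library. The number of animals pooled and the time of tamoxifen are not given in the labels used here. The sort at P25 took cells by a Col1a1-driven reporter, and the part of this gate in the Col1a1 levels was not tested.

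A collagen molecule is a triple helix of chains. Type I collagen, the main protein of bone, dentin and ligament, joins a pair of chains from Col1a1 with 1 chain from Col1a2, while type III collagen is made of Col3a1 chains alone and is abundant in soft tissue. Types V and XI sit inside the fibrils and are known to limit their width, FACIT collagens bind the fibril surface, and type IV collagen builds the sheet of basement membranes under epithelium and around vessels. Type VI forms beaded filaments near cells, and transmembrane collagens such as Col17a1 anchor cells to their matrix. By this structure the 38 genes fall into 10 fibrillar, 6 basement membrane, 3 short-chain network, 5 beaded filament, 1 anchoring fibril, 5 FACIT, 2 multiplexin, 4 transmembrane and 2 other members.

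After filtering, 7065, 1121 and 5401 cells were kept in the Cxcl12-GFP P6, Cxcl12-creER P6 and P25 libraries, with medians of 8141, 1459 and 14786 UMIs per cell. The Cxcl12-creER P6 library is thus by far the shallowest. Clusters were named from marker genes with no collagen among them, and 38.2%, 37.7% and 23.4% of the cells kept no name. The libraries shared 0, 1 and 5 cell barcodes. The first 8 bases of the barcodes recurred in P25 for 82.4% of those seen in Cxcl12-creER P6 and for 21% of those in Cxcl12-GFP P6, although the labels name 1 chemistry.

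Markers fit the names unevenly. The odontoblast-like cells at P25 had 583 UMIs of Dspp per 1000000 UMIs of the class (CPM), the dentin matrix gene that defines them, against 11 CPM in osteoblast-like and 255 CPM in connective tissue fibroblast-like cells. They also had 10650 CPM of the bone gene Bglap, against 68709 CPM in osteoblast-like cells. The class called follicle or ligament-like changed its markers with library: Postn stood at 1066 CPM in Cxcl12-GFP P6 and 14142 CPM at P25, while Tnmd stood at 651 and 79.0 CPM. The name ligament-like is used for this class at P25 only, and it does not rest on Tnmd, which was lower there. In Cxcl12-creER P6, 70.5% of the UMIs of this class came from 1 cluster of 44 cells, and the comparison of the day 6 libraries is also given without it.

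With 1 library per group there is no replicate, so no p-value is given. Each level is the CPM of a gene in the summed cells of a class. Intervals are exact 95% Poisson or binomial intervals, and they cover counting error only. Because each molecule is counted once at its 3' end, CPM was not divided by gene length, and a level compared between genes assumes that both are captured alike.

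The collagen content differed widely between classes. All 38 genes together took 11.9% of the UMIs of ligament-like cells at P25, 10.1% in osteoblast-like and 8.93% in odontoblast-like cells. The share was 3.81% in connective tissue fibroblast-like cells and 0.719% in pulp-like cells. It was 0.369% in neutrophil-like and 0.0970% in macrophage-like cells. Whether these cells make collagen of their own was not tested, and a level near theirs is read here as background. The macrophage-like cluster of Cxcl12-creER P6 itself had 9990 CPM of Col1a1 and was not used in that way. No macrophage-like or neutrophil-like class was named in Cxcl12-GFP P6, so the levels there have no such reference. In Cxcl12-GFP P6 the share was 2.37% in the follicle or ligament-like class, below that at P25, and 1.02% in the pulp-like class, above that at P25. Col1a1 and Col1a2 had the highest levels of any member in ligament-like, osteoblast-like and odontoblast-like cells at P25, but Col3a1 was above both in connective tissue fibroblast-like and pulp-like cells, and Col4a1 was above both in endothelial-like cells.

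**Figure D1:**
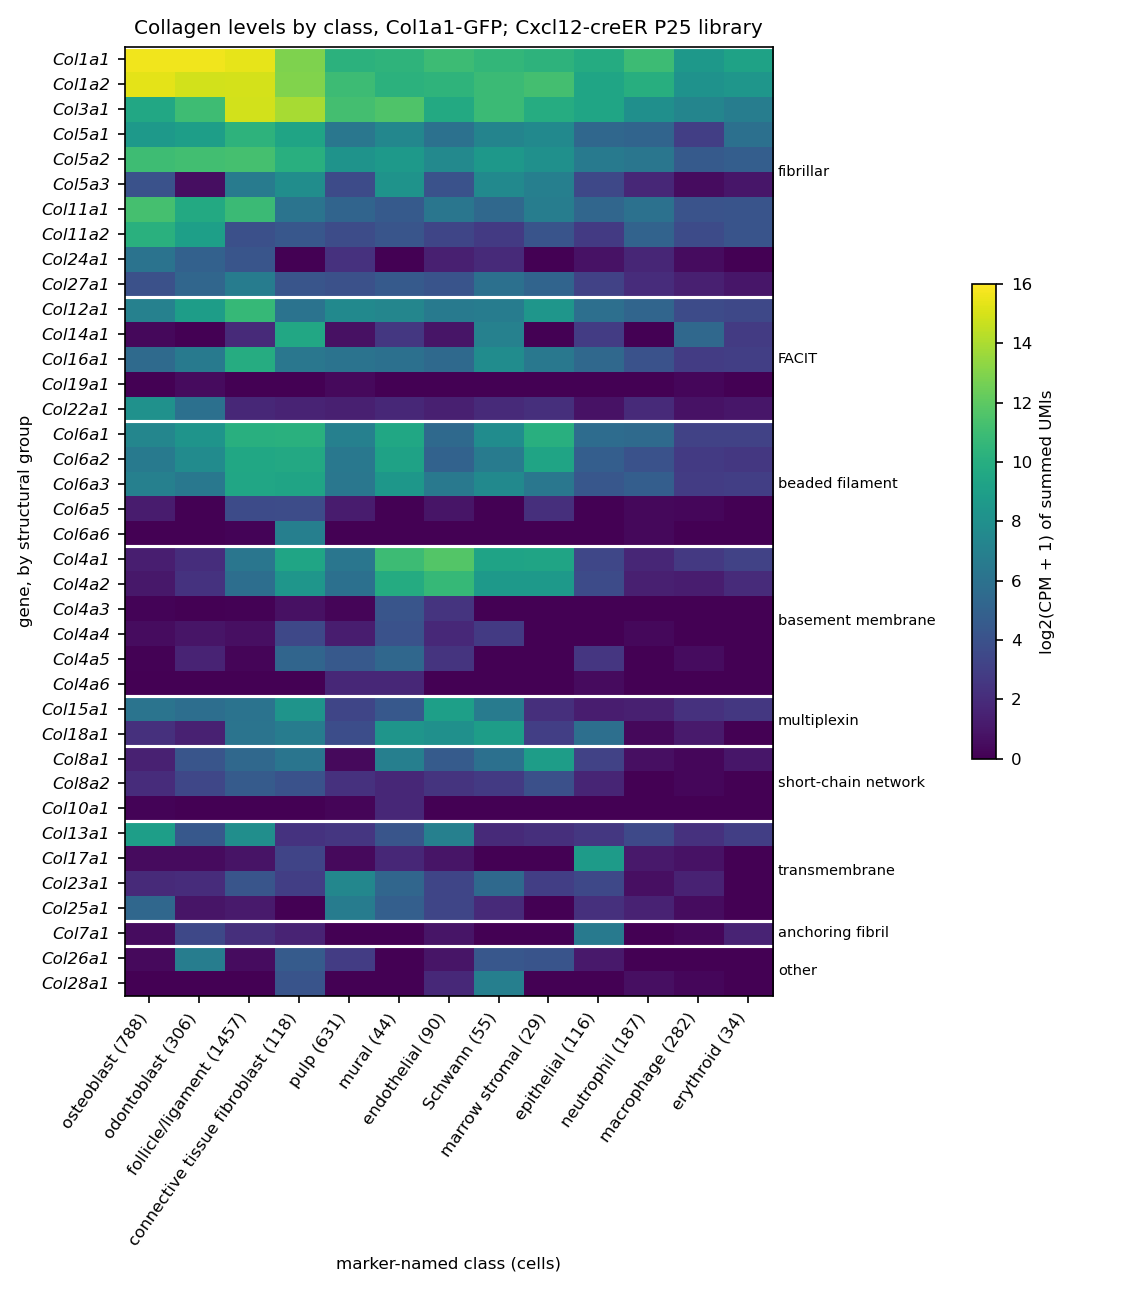
Levels of the 38 collagen genes (rows, grouped by structure) in the 13 named cell classes of the P25 library (columns, with the number of cells), as log2 of CPM plus 1. The type I and III rows are high in ligament-like cells, the Col4a1 and Col4a2 rows in endothelial-like and mural-like cells, and Col17a1 in epithelial-like cells.

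Col1a1 stood at 52112 CPM in osteoblast-like, 50905 CPM in odontoblast-like and 43515 CPM in ligament-like cells at P25. The osteoblast-like level was 1.02 times (1.02-1.03) the odontoblast-like one, and the 5 clusters of the osteoblast-like class ranged from 8697 to 79222 CPM, so the order of these classes is within the spread of their clusters. Connective tissue fibroblast-like cells had 7605 CPM and pulp-like cells 1252 CPM, and the unnamed cells had 14784 CPM. The pulp-like level lay under the 2020 CPM of neutrophil-like cells and above the 368 CPM of macrophage-like cells. By CPM the pulp level at P25 is thus not clear of background, but the neutrophil-like clusters themselves ran from 1143 to 3940 CPM. Shares of cells at equal depth are given below. In Cxcl12-GFP P6 the follicle or ligament-like class had 9269 CPM and the pulp-like class 3365 CPM. In Cxcl12-creER P6 the osteoblast-like class had 52526 CPM, the follicle or ligament-like class 9836 CPM, the connective tissue fibroblast-like class 7996 CPM and the pulp-like class 5265 CPM. Without its cluster of 44 cells, the follicle or ligament-like level there was 19179 CPM. In both libraries of day 6 this class lay below its level at P25, while the osteoblast-like levels of day 6 and day 25 lay close together. The follicle or ligament-like clusters ran from 5921 to 48532 CPM in Cxcl12-creER P6 and from 20006 to 60839 CPM at P25, so these overlap. Those of Cxcl12-GFP P6 ran from 6719 to 13295 CPM and did not overlap with P25. Osteoblast-like clusters of Cxcl12-creER P6 ran from 32829 to 61205 CPM, so that closeness depends on the mix of clusters.

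Col1a2, the partner chain, was highest in the same 3 classes, with 40719 CPM in osteoblast-like, 32672 CPM in ligament-like and 30690 CPM in odontoblast-like cells at P25. Pulp-like cells had 2019 CPM of Col1a2, which lay above the 1048 CPM of neutrophil-like cells. After each cell was thinned to 1000 UMIs, Col1a1 was seen in 99.9% of ligament-like, 98.2% of osteoblast-like and 66.7% of pulp-like cells. It was also seen in 25.7% of neutrophil-like cells, a smaller share than in pulp-like cells although their CPM was higher. In macrophage-like cells the share was 35.5%, and 98.9% without thinning.

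Col3a1, whose chains form fibrils with type I collagen in soft tissues, was highest in the ligament-like and fibroblast-like classes. Its level was 31338 CPM in ligament-like and 15255 CPM in connective tissue fibroblast-like cells at P25, a ratio of 2.05 (2.03-2.08). Mural-like cells had 3114 CPM, pulp-like cells 2434 CPM, odontoblast-like cells 2085 CPM and osteoblast-like cells 758 CPM. The 2 pulp-like clusters ranged from 1541 to 2915 CPM, so the pulp-like and odontoblast-like levels are within the spread of clusters. Macrophage-like cells had 156 CPM, below every one of these. In Cxcl12-GFP P6, follicle or ligament-like cells had 6164 CPM, mural-like cells 5243 CPM and pulp-like cells 3611 CPM. In Cxcl12-creER P6, Col3a1 was highest in connective tissue fibroblast-like cells, with 10738 CPM. The gene lies at chr1:45311538-45349706 on the plus strand of GRCm38.

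Col5a2, a chain of type V collagen that starts and limits fibrils, was at 2523 CPM in ligament-like, 2233 CPM in odontoblast-like and 2101 CPM in osteoblast-like cells. Col5a1 reached 1298 CPM and Col5a3 100 CPM in ligament-like cells, but Col5a3 was highest in mural-like cells, at 303 CPM. Col27a1 was highest in ligament-like cells, with 103 CPM, and Col24a1 in osteoblast-like cells, with 67.0 CPM.

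The type XI chains parted between ligament and bone. Col11a1 stood at 2508 CPM in osteoblast-like, 1940 CPM in ligament-like and 830 CPM in odontoblast-like cells at P25. Col11a2 stood at 1129 CPM in osteoblast-like and 527 CPM in odontoblast-like cells but at 14.3 CPM in ligament-like cells, below the 33.2 CPM of neutrophil-like cells. There were therefore 2.22 UMIs of Col11a1 (2.18-2.26) per UMI of Col11a2 in osteoblast-like cells, 1.57 (1.5-1.65) in odontoblast-like cells and 136 (123-151) in ligament-like cells. The osteoblast-like class of Cxcl12-creER P6 had a ratio of 2.19 (1.81-2.64), close to that at P25. After thinning, 46.6% of osteoblast-like, 32.0% of odontoblast-like and 1.17% of ligament-like cells had a Col11a2 UMI, against 2.13% of macrophage-like cells.

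The bases just upstream of Col3a1, Col11a1 and Col11a2 are printed because their levels set ligament-like apart from osteoblast-like cells (Col3a1, Col11a2) or are shared by both (Col11a1). They come from the RefSeq promoter table for GRCm38.p6, in which 31 of the 38 genes have an entry, and each run is the 250 bases before the start site on the plus strand. Capitals mark every match, on either strand, to the motifs TATAAA or CCAAT or GGGCGG or ACCACA, and a reverse-strand match is shown as its reverse complement. No matches of different motifs overlap in these windows. The windows are chr1:45311288-45311537, chr3:114030290-114030539 and chr17:34038888-34039137.
Col3a1: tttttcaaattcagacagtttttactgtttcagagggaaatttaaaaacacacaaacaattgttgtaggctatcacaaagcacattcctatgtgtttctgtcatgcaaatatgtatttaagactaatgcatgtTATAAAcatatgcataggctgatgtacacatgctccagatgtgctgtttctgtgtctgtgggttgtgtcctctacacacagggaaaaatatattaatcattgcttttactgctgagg
Col11a1: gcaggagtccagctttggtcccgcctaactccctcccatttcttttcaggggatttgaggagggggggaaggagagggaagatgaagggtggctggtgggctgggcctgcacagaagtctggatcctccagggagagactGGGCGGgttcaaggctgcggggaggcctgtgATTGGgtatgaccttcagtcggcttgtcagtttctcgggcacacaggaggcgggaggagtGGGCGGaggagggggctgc
Col11a2: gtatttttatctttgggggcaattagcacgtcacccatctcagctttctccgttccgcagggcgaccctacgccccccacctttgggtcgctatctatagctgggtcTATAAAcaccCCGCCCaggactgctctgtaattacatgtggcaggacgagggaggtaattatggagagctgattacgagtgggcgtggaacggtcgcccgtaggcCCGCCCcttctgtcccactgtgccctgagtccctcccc
The Col3a1 window holds 1 TATAAA and is 35.2% G or C, the Col11a1 window holds 1 CCAAT and 2 GGGCGG matches and is 62.4% G or C, and the Col11a2 window holds 1 TATAAA and 2 GGGCGG matches and is 57.6% G or C. Of 33 member windows, 5 hold TATAAA, 11 CCAAT, 20 GGGCGG and 3 ACCACA. Of all 32851 windows in the table, 12.4%, 33.8%, 32.7% and 14% do. A match is a string of letters and not a shown binding site.

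The ratio of the type I chains in pulp turned over between the libraries. Pulp-like cells had 2.71 UMIs of Col1a1 (2.67-2.75) per UMI of Col1a2 in Cxcl12-GFP P6, 3.44 (3.18-3.73) in Cxcl12-creER P6 and 0.620 (0.603-0.638) at P25. The same ratio was 1.89, 1.57 and 1.33 in follicle or ligament-like cells in that order of libraries, and in the osteoblast-like class it was 1.90 for Cxcl12-creER P6 and 1.28 for P25. Odontoblast-like cells had 1.66 (1.65-1.67) and connective tissue fibroblast-like cells 0.966 (0.941-0.991) at P25. The macrophage-like, neutrophil-like and erythroid-like cells at P25 had 1.28, 1.93 and 1.75, all above 1, while pulp-like cells lay below 1. A ratio below 1 was not particular to pulp-like cells. Marrow stromal-like cells at P25 had 0.554, lower than pulp-like cells, and Schwann-like cells had 0.805. Endothelial-like, epithelial-like and mural-like cells there had 1.46, 1.35 and 1.12. In Cxcl12-GFP P6, Schwann-like and ameloblast-like cells had 0.591 and 0.544, and endothelial-like and mural-like cells 2.14 and 1.82.

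Within pulp the ratio also varied by cluster. It ran from 1.12 to 5.78 over the 5 pulp-like clusters of Cxcl12-GFP P6 shown with at least 20 UMIs of each chain and was 0.677 and 0.504 in the 2 pulp clusters at P25, so the ranges of the libraries did not overlap. An unnamed P25 cluster of 205 cells led by Ambn, Crabp1 and Apod had 1.55, and naming clusters by their best list alone put it in pulp and moved the pulp ratio to 1.03. In thinned pulp-like cells at P25, 158 cells had Col1a2 without Col1a1 and 64 had Col1a1 without Col1a2. In Cxcl12-GFP P6 the numbers were 198 and 827. In the osteoblast-like class of Cxcl12-creER P6 the ratio was 6.79 in 1 cluster and 1.63 in the other. Ameloblast-like cells of Cxcl12-creER P6, which secrete enamel, had 0.0660 (0.0471-0.0903), with 542 CPM of Col1a2 against 35.8 CPM of Col1a1, while neutrophil-like cells there had 155 CPM of Col1a2.

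**Figure D2:**
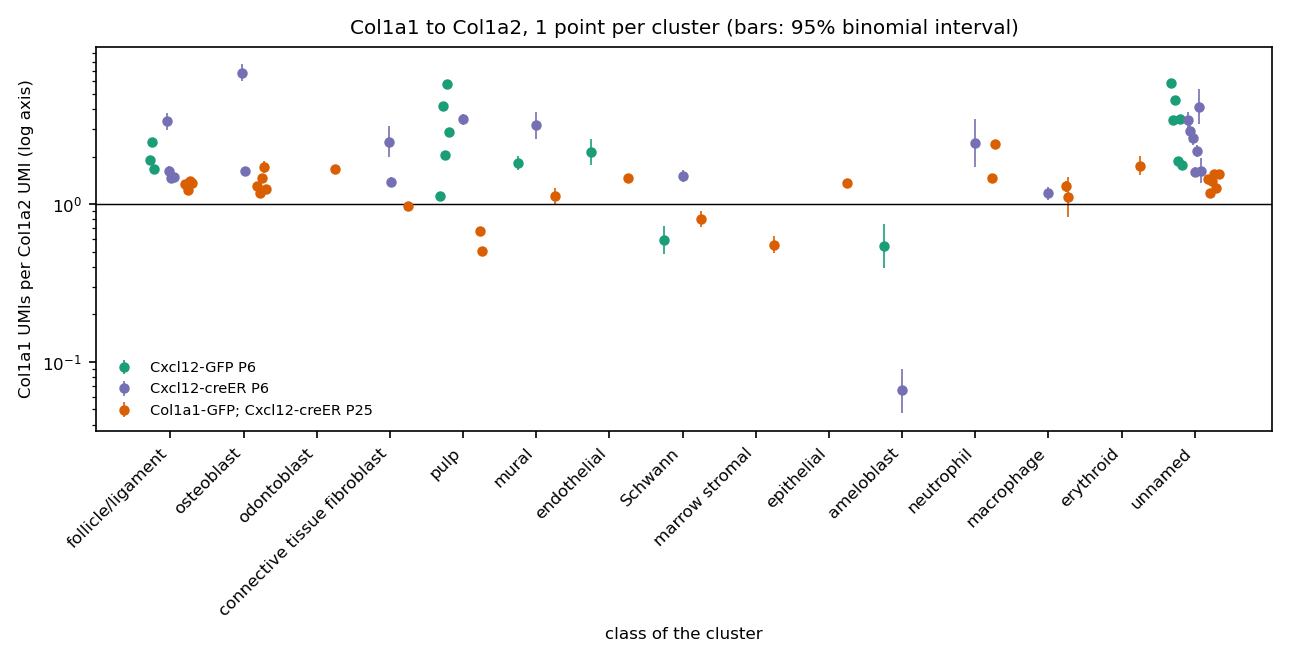
UMIs of Col1a1 per UMI of Col1a2 (log axis) for each cluster, by class and library, with 95% binomial intervals. The P25 pulp-like clusters lie at 0.677 and 0.504, below the pulp-like clusters of the P6 libraries.

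The main basement membrane chains were highest in the cells of vessels. Col4a1 stood at 3312 CPM in endothelial-like, 1963 CPM in mural-like and 686 CPM in connective tissue fibroblast-like cells at P25, and at 1.59 CPM in osteoblast-like cells. Col4a2 stood at 1675, 913 and 342 CPM in the same 3 classes. The ratio of Col4a1 to Col4a2 was 1.80, 2.02 and 1.98 in endothelial-like cells of the Cxcl12-GFP P6, Cxcl12-creER P6 and P25 libraries. Pulp-like cells had 0.996, 0.846 and 1.35. After thinning, 54.4% of the 90 endothelial-like cells at P25 had a UMI of both chains. Mural-like and several smaller classes have under 50 cells and are given as levels only. Col4a5 was low in all classes, with 40.1 CPM in mural-like and 35.7 CPM in connective tissue fibroblast-like cells. Col4a3, Col4a4 and Col4a6 did not exceed 17.6 CPM in any P25 class.

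Col4a1 and Col4a2 lie head to head on chromosome 8, and their start sites overlap. Col4a1 spans chr8:11198423-11312826 on the minus strand and Col4a2 spans chr8:11312805-11449287 on the plus strand of GRCm38. The 30 bases chr8:11312801-11312830 are printed, plus strand, from RefSeq GRCm38.p6, and capitals mark the 22 bases that both genes share.
Col4a1 and Col4a2: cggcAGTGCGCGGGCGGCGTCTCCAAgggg
Where the strand setting of the counting is not known, reads from that overlap cannot be assigned, but it lies at the 5' ends and the libraries read 3' ends. Counting by strand is not given in the sources used here, and 9 members overlap a gene on the other strand, among them Col12a1, Col14a1, Col15a1, Col18a1 and Col22a1.

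The type VI chains were high in several stromal classes and lower in pulp-like cells. Col6a1 stood at 1140 CPM in connective tissue fibroblast-like, 1107 CPM in ligament-like and 1070 CPM in marrow stromal-like cells at P25. The first was 1.03 times (0.980-1.08) the second, which is not a difference beyond counting error. Col6a2 stood at 800 and 755 CPM in the first of these classes and in ligament-like cells, and Col6a3 at 646 and 713 CPM. Pulp-like cells had 123, 84.5 and 80.3 CPM of Col6a1, Col6a2 and Col6a3, below the 310 and 208 CPM of the first 2 chains in odontoblast-like cells, where Col6a3 stood at 84.9 CPM. Col6a6 reached 117 CPM in connective tissue fibroblast-like cells and had 3 UMIs in ligament-like cells. Col6a5 stayed at 12.1 CPM or below.

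FACIT collagens differed between the stromal classes. Col12a1, which decorates tension-bearing fibrils, stood at 1666 CPM in ligament-like and 487 CPM in odontoblast-like cells at P25. Col14a1 stood at 769 CPM in connective tissue fibroblast-like, 131 CPM in Schwann-like, 41.0 CPM in macrophage-like and 2.77 CPM in ligament-like cells. Col16a1 was highest in ligament-like cells, with 939 CPM. Col22a1, known from tissue junctions, stood at 275 CPM in osteoblast-like, 57.9 CPM in odontoblast-like and 2.50 CPM in ligament-like cells. Col19a1 did not exceed 0.356 CPM in any P25 class, and its highest P6 levels were in pulp-like cells, with 6.10 CPM in Cxcl12-GFP P6 and 13.8 CPM (7 UMIs) in Cxcl12-creER P6.

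The multiplexin, short-chain and transmembrane collagens were lower in level and were highest in different classes. Col15a1 stood at 514 CPM in endothelial-like and 316 CPM in connective tissue fibroblast-like cells at P25, and Col18a1 at 477 CPM in Schwann-like, 328 CPM in mural-like and 263 CPM in endothelial-like cells. In Cxcl12-GFP P6, Col18a1 was highest in endothelial-like cells, with 992 CPM. Col13a1 stood at 490 CPM in osteoblast-like and 236 CPM in ligament-like cells. Col17a1, which anchors basal epithelium, stood at 434 CPM in epithelial-like cells and at 8.77 CPM in connective tissue fibroblast-like cells, the next class. Col7a1, the anchoring fibril collagen, was highest in epithelial-like cells too, with 89.5 CPM. Col8a1 reached 471 CPM in the 29 marrow stromal-like cells, and Col8a2 reached 253 CPM in pulp-like cells of Cxcl12-creER P6. Col10a1 did not exceed 2.51 CPM in any P25 class.

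Col23a1 and Col25a1, both transmembrane, were highest in pulp-like cells at P25. Col23a1 stood at 130 CPM in pulp-like cells of Cxcl12-GFP P6, 163 CPM in those of Cxcl12-creER P6 and 171 CPM at P25. Col25a1 stood at 61.0, 25.5 and 105 CPM in the same order. At P25, 17.1% of thinned pulp-like cells had a Col23a1 UMI and 9.03% a Col25a1 UMI, against 0 of 282 thinned macrophage-like cells for each, which allows a share of up to 1.30% of cells with a UMI at that depth (exact 95% binomial limit). Without thinning the shares were 68.9% and 52.1% of pulp-like cells, against 1.42% and 0.709% of macrophage-like cells. Col25a1 was also present in 1 osteoblast-like cluster, at 103 CPM. Col28a1 was highest in Schwann-like cells, with 117 CPM at P25, and Col26a1 in odontoblast-like cells, with 111 CPM.

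Among the classes of at least 50 cells at P25, 9 of the 34 members with at least 10 CPM in some class and 20 UMIs in all were highest in connective tissue fibroblast-like, 8 in ligament-like and 7 in osteoblast-like cells. The shares of all genes past the same limits that were highest in these classes were 7.67%, 3.59% and 1.84%. Most of the connective tissue fibroblast-like set was close to the next class. For Col4a4, Col5a3, Col6a1, Col6a2, Col6a5 and Col8a1 the interval of that ratio did not exclude an equal level. Col4a5 and Col5a3 were also higher in mural-like cells, and Col8a1 in marrow stromal-like cells, which the limit of 50 cells left out. The osteoblast-like set was Col1a1, Col1a2, Col11a1, Col11a2, Col13a1, Col22a1 and Col24a1. Endothelial-like cells held 3 (16.6% of all genes), Schwann-like 2 (16.5%), epithelial-like 2 (14.1%), pulp-like 2 (13.2%), odontoblast-like 1 (4.03%), and macrophage-like and neutrophil-like cells 0 (12.6% and 9.88%). In Cxcl12-GFP P6, 10 of 27 members were highest in follicle or ligament-like cells (14.9% of all genes), 7 in pulp-like cells (27.1%), 5 in endothelial-like (33.3%) and 5 in mural-like cells (24.7%). In Cxcl12-creER P6, 11 of 30 were highest in connective tissue fibroblast-like cells (25.6%), 8 in osteoblast-like (20.2%), 8 in pulp-like (29.9%), 2 in follicle or ligament-like (18.5%) and 1 in ameloblast-like cells (5.84%). The limit of 50 cells held there too and left out, among others, the 19 endothelial-like and 32 mural-like cells. The 11 include Col4a1 and Col4a2 for that reason. Col4a1 had 121 UMIs among 36448 in endothelial-like cells, and 188 among 291409 in connective tissue fibroblast-like cells. Without the cluster of 44 cells, 4 were highest in follicle or ligament-like and 9 in connective tissue fibroblast-like cells.

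The comparisons that follow count a gene as higher or lower where the log2 ratio of CPM, with 1 CPM added, passed 2-fold. Genes with a mean under 10 CPM or under 20 UMIs were not tested. At P25, some called members had their lower level at or under that of neutrophil-like or macrophage-like cells, so that level is not clear of background and the printed fold may understate the difference, beyond what its interval covers. These were 1 of 12 called members for odontoblast-like over osteoblast-like cells (Col25a1), 5 of 20 for osteoblast-like over ligament-like (Col4a1, Col4a2, Col11a2, Col22a1 and Col25a1), 6 of 22 for pulp-like over ligament-like (Col1a1, Col4a5, Col8a1, Col11a1, Col13a1 and Col25a1) and 4 of 18 for connective tissue fibroblast-like over ligament-like cells (Col4a5, Col6a6, Col13a1 and Col14a1). Odontoblast-like over osteoblast-like cells at P25 gave 6 higher and 6 lower of 19 tested members, where 8.16% and 4.11% of all tested genes were called. Col12a1 was 3.83 times higher (3.61-4.06) and Col3a1 2.75 times higher (2.68-2.82), and Col26a1 was at 111 against 0.317 CPM (5 UMIs). Col27a1 was 2.63 times higher (2.17-3.17). Col13a1 was 23.9 times lower (19.9-29.0), Col22a1 4.74 times lower (4.24-5.33) and Col11a1 3.02 times lower (2.93-3.12), and Col25a1 stood at 0.890 against 39.3 CPM. The odontoblast-like levels of Col22a1 (57.9 CPM) and Col11a1 (830 CPM) lay within the spread of the osteoblast-like clusters. Those clusters ran from 16.9 to 398 CPM for Col22a1 and from 253 to 4375 CPM for Col11a1. For Col13a1 they ran from 95.8 to 558 CPM, all above the odontoblast-like 20.5 CPM. Odontoblast-like cells also had 6 of 8 tested basement membrane partner genes higher and none lower, with Pxdn at 23.0 against 0.888 CPM. When clusters were named by their best list alone, 2 members were higher.

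Osteoblast-like over ligament-like cells at P25 gave 5 higher and 15 lower of 25 tested members, where 4.13% and 12.3% of all genes were called. Col22a1 was 110 times higher (85.8-143), Col11a2 79.2 times higher (71.4-88.0) and Col24a1 3.86 times higher (3.45-4.33), with Col25a1 at 39.3 against 1.25 CPM. Col3a1 was 41.3 times lower (40.6-42.1), Col16a1 20.9 times lower (19.4-22.6) and Col4a1 48.8 times lower (32.9-75.6). The Col4a1 levels of single clusters overlapped, at 0.907 to 16.9 CPM in osteoblast-like and 2.71 to 211 CPM in ligament-like clusters. Those of Col24a1 overlapped too, at 5.63 to 346 and 9.96 to 23.3 CPM, but those of the other members named above did not. All 3 tested type VI chains were lower. The type I chains were within 2-fold. Of 8 tested fibril partner genes, 5 were lower and none higher, with Fmod, a leucine-rich proteoglycan that binds fibrils, at 11.8 against 509 CPM. Of 16 tested chain modification genes 4 were lower (P4ha3, P3h3, Plod3 and Colgalt1), with the prolyl hydroxylase subunit P4ha3 at 4.95 against 83.6 CPM. Only 1 was higher, the lysyl hydroxylase Plod2, at 531 against 203 CPM. Col2a1, of the cartilage set, was at 2102 against 13.7 CPM.

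Pulp-like over ligament-like cells at P25 gave 3 higher and 19 lower of 25 tested members, where 15% and 8.13% of all genes were called. The 3 were Col25a1, 84.2 times higher (59.1-124), Col23a1, 9.83 times higher (8.79-11), and Col4a5, at 21.5 against 0.156 CPM (4 UMIs). Of the 10 fibrillar members, 9 were lower, among them Col1a1, 34.7 times (34.0-35.5), and Col11a1, 54.8 times (48.0-62.9). In pulp-like cells both lay under the neutrophil-like levels, at 1252 against 2020 CPM and 35.4 against 60.5 CPM. All 3 tested type VI chains were lower too, with a median log2 ratio of -3.14. Col13a1 was 48.8 times lower (34.1-72.4), and Col8a1 had 2 UMIs in pulp-like cells. Genes that process collagen were counted from lists: of 16 tested chain modification genes 9 were lower and none higher, with the collagen chaperone Serpinh1 at 1043 against 2733 CPM. Of 8 tested cleavage and cross-linking genes 2 were higher, Adamts3 at 23.3 against 3.60 CPM and Loxl3 at 24.7 against 11.1 CPM, and 6 were lower, with the procollagen protease Adamts2 at 8.4 against 355 CPM and Lox at 45.7 against 459 CPM.

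Connective tissue fibroblast-like over ligament-like cells at P25 gave 8 higher and 10 lower of 27 tested members, where 12.3% and 5.92% of all genes were called. Col14a1 was 277 times higher (218-357), and Col6a6, Col4a5 and Col26a1 were higher against 3, 4 and 11 UMIs in ligament-like cells. Col13a1 was 58.4 times lower (26.8-159), Col11a1 27.9 times lower (23.0-34.2) and Col12a1 24.2 times lower (19.9-29.7). All 3 tested basement membrane chains were higher, and 7 of 9 tested basement membrane partners were higher with none lower. Nid1, which links type IV collagen to laminin, was at 642 against 105 CPM. The tenascin Tnxb was at 492 against 0.234 CPM.

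Pulp-like over follicle or ligament-like cells in Cxcl12-GFP P6 gave 3 higher and 11 lower of 22 tested members, where 6.71% and 6.98% of all genes were called. The same 3 genes as at P25 were higher: Col25a1 11.3 times (8.97-14.5), Col4a5 5.41 times (4.27-6.94) and Col23a1 2.46 times (2.27-2.67). Col8a1 was 12.2 times lower (10.9-13.7), Col18a1 12.2 times lower (9.43-16) and Col1a2 3.96 times lower (3.90-4.02). Col1a1 was 2.75 times lower (2.73-2.78), where it was 34.7 times lower at P25. Levels of single clusters overlapped between the classes for Col25a1, Col4a5, Col23a1 and Col8a1, but not for Col18a1, Col1a2 and Col1a1. For Col8a1 they ran from 4.01 to 106 CPM in pulp-like and from 71.0 to 267 CPM in follicle or ligament-like clusters.

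**Figure D3:**
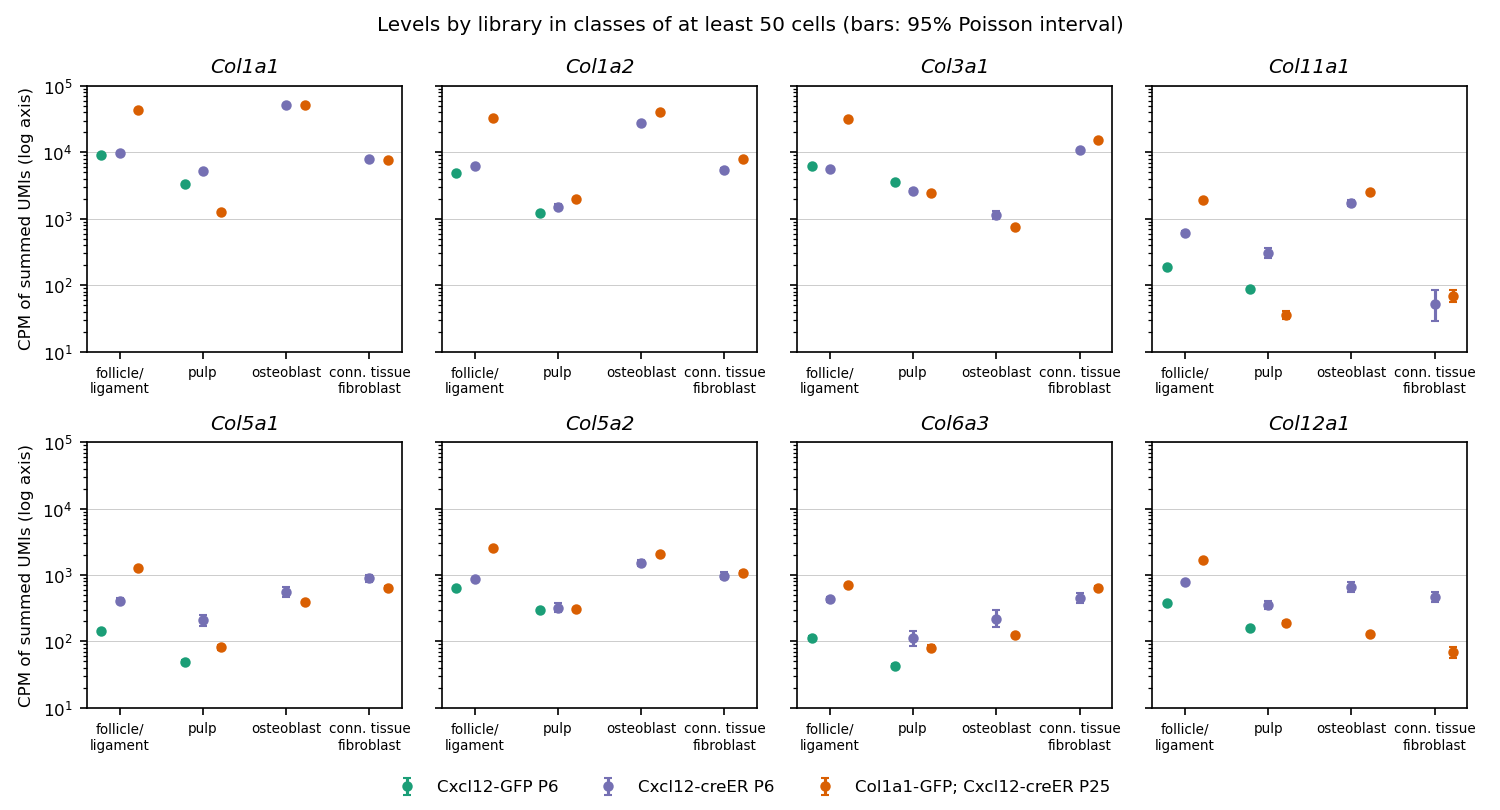
Levels in CPM (log axis) of Col1a1, Col1a2, Col3a1, Col11a1, Col5a1, Col5a2, Col6a3 and Col12a1 in 4 classes, by library, with 95% Poisson bars. Follicle or ligament-like levels are higher at P25 than in Cxcl12-GFP P6 for each of these genes.

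P25 over Cxcl12-GFP P6 in follicle or ligament-like cells gave 15 higher and 5 lower of 23 tested members, where 8.54% and 16.9% of all genes were called. All 9 tested fibrillar members were higher. Col1a1 stood at 43692 against 9333 CPM over the shared genes, 4.68 times (4.65-4.71), Col1a2 at 6.63 times (6.58-6.68), Col3a1 at 5.07 times (5.03-5.11) and Col11a1 at 10.2 times (9.80-10.6). The median log2 ratio was 2.09 over the members and -0.33 over all tested genes. Col15a1 was at 68.7 against 0.795 CPM, Col13a1 17.5 times higher (15.1-20.3) and Col5a3 17.4 times higher (13.9-22). Col26a1 was 126 times lower (70.1-254), Col8a1 4.67 times lower (4.35-5.02), Col23a1 3.06 times lower (2.72-3.45) and Col8a2 2.79 times lower (2.51-3.09). Levels of single clusters overlapped between the libraries for Col5a3, Col8a1, Col23a1 and Col8a2, but not for the other members named above. For Col8a1 they ran from 6.14 to 188 CPM at P25 and from 71.0 to 267 CPM in Cxcl12-GFP P6. Of 8 tested fibril partners 6 were higher and none lower, with Sparc at 35569 against 7381 CPM and Fmod at 511 against 73.3 CPM. Among the 16 tested chain modification genes 2 were higher, and Serpinh1 was at 2745 against 2628 CPM.

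**Figure D4:**
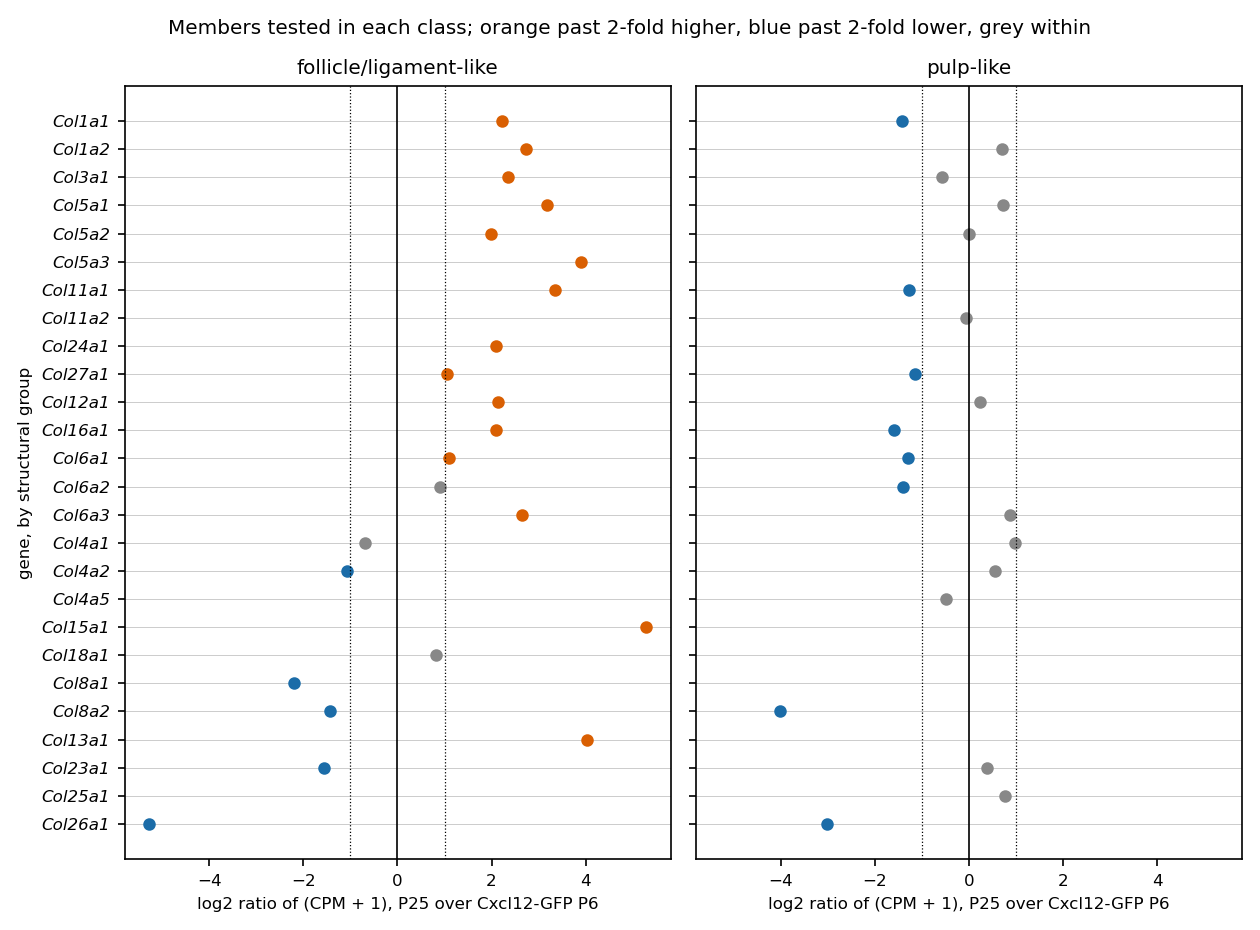
Log2 ratio of CPM plus 1 at P25 over Cxcl12-GFP P6 for each tested member in follicle or ligament-like and in pulp-like cells. Points past 2-fold are orange where higher and blue where lower, and there are 15 orange points in the first class and 0 in the second.

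In pulp-like cells the same libraries gave 0 higher and 8 lower of 20 tested members, where 10.4% and 10.2% of all genes were called. Scaled to the UMIs outside the members, 1 was higher and 8 were lower. Col8a2 was 20.1 times lower (13.4-31.4), Col26a1 9.21 times lower (6.69-13.0), Col16a1 3.05 times lower (2.76-3.39) and Col1a1 2.69 times lower (2.63-2.76) at P25. Col1a2 was not lower with it: it stood at 2027 against 1249 CPM over the shared genes, a log2 ratio of 0.70. Col3a1 stood at 2444 against 3636 CPM and Col5a2 at 304 against 304 CPM. At P25 the pulp-like levels of Col1a1 and Col11a1, both called lower, lay under the neutrophil-like ones, at 1252 against 2020 CPM and 35.4 against 60.5 CPM. Levels of single pulp-like clusters overlapped between the libraries for Col16a1 and Col1a1, but not for Col8a2 and Col26a1. For Col1a1 they ran from 945 to 1418 CPM at P25 and from 575 to 5708 CPM in Cxcl12-GFP P6. Of 15 tested chain modification genes 3 were lower, among them Serpinh1 at 1047 against 2325 CPM.

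The libraries of equal age differed as well. In the follicle or ligament-like class, Cxcl12-GFP P6 over Cxcl12-creER P6 gave 0 higher and 10 lower of 23 tested members, where 7.11% and 12.0% of all genes were called. Col14a1 was 38.6 times lower (24.9-61.9), Col11a2 22.9 times lower (12.8-42.3), Col5a3 7.28 times lower (5.10-10.3) and Col6a3 3.79 times lower (3.44-4.17). Without the cluster of 44 cells the Cxcl12-creER P6 levels went from 72.0 to 241 CPM for Col14a1, from 29.5 to 97.6 CPM for Col11a2, from 41.8 to 137 CPM for Col5a3 and from 429 to 705 CPM for Col6a3. The log2 ratios were then -6.41, -5.43, -4.35 and -2.63 in that order, against -4.67, -3.74, -2.67 and -1.91 with it. Col1a1 stood at 9333 against 9903 CPM over the shared genes, but without the cluster of 44 cells the Cxcl12-creER P6 level was 19179 CPM over 126 cells. Without it 1 member was higher and 14 were lower. At clustering resolution 0.5 the log2 ratios of Col11a2 and Col14a1 turned to 0.07 and 0.37, so their direction depends on how the cells were grouped.

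Some chain ratios differed between the libraries of equal age. Col5a1 per Col5a2 in follicle or ligament-like cells was 0.225 in Cxcl12-GFP P6, 0.476 in Cxcl12-creER P6 and 0.515 at P25, and Col6a3 per Col6a1 was 0.219, 0.696 and 0.644. Without the cluster of 44 cells the Cxcl12-creER P6 values were 0.677 and 0.705. In both, the Cxcl12-creER P6 value lay nearer to P25 than to the other library of day 6, with or without that cluster. The libraries of day 6 differ from each other in genotype, sort and library but not in age, and these cannot be told apart. Each of them differs from P25 in age as well.

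Col1a1 was read beside the GFP of the Col1a1-GFP allele at P25. GFP stood at 3393 CPM in osteoblast-like, 2502 CPM in odontoblast-like, 1335 CPM in ligament-like cells, and pulp-like cells had 291 CPM. There were 15.4 Col1a1 UMIs per GFP UMI in osteoblast-like, 20.3 in odontoblast-like, 32.6 (32.3-33.0) in ligament-like and 4.30 (4.08-4.53) in pulp-like cells. Connective tissue fibroblast-like cells had 29.0 CPM of GFP (21-39.1) and 262 Col1a1 UMIs per GFP UMI (195-363), with GFP close to the 20.8 CPM of macrophage-like cells. The sort used this GFP, and its part in the ratios was not tested.

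**Figure D5:**
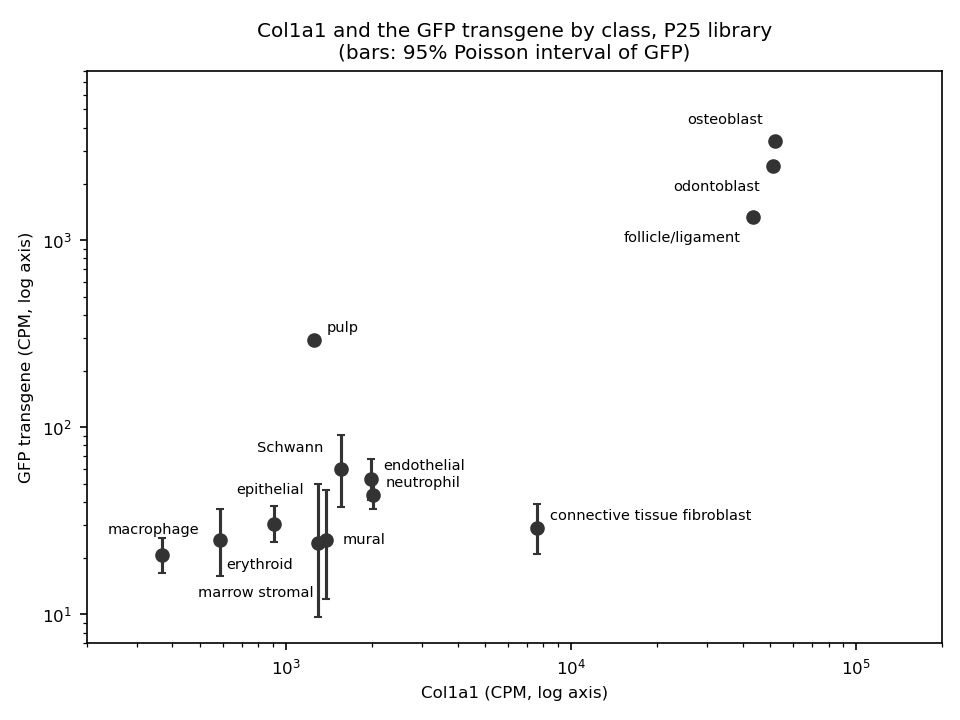
Col1a1 CPM against GFP CPM (both axes log) in each named class of the P25 library. Osteoblast-like, odontoblast-like and ligament-like cells are high on both axes, and pulp-like cells have 291 CPM of GFP with 1252 CPM of Col1a1.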

How the data were processed

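UMI counts, whole numbers by gene and barcode, were used as the authors deposited them. The submitters' processing notes list mm10, Cell Ranger and Seurat. Per the file headers, the Cxcl12-creER P6 matrix was made with Cell Ranger 6.0.0 and the P25 matrix with 3.1.0. Aligner settings and the strand setting of the counting are not stated in the sources used here. The libraries held 7528, 1691 and 6693 barcodes and 68891094, 6596256 and 99277096 UMIs (Cxcl12-GFP P6, Cxcl12-creER P6, P25).

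A barcode was kept if it had 500 or more genes and no more than 15% mitochondrial UMIs. Simulated-doublet scores, at a rate of 0.8% per 1000 cells, removed 452, 10 and 256 cells. That number follows from the rate. Leiden clustering at resolution 1.0 used 2000 variable genes, 30 principal components and 15 neighbours, with all Col genes, Cxcl12 and the reporters left out. Clusters (19, 25 and 29) took the best of 19 marker lists where at least 3 markers were 1.5-fold up in 10% of cells, with a score of 0.9 and a lead of 0.2. These limits were chosen with the clusters in view, and the lead was lowered so that the Dspp-led P25 cluster took the odontoblast name. Clustering ran on leidenalg 0.10.2 with igraph 0.11.9 and scikit-learn 1.9.0, intervals on scipy 1.17.1, and tables and figures on pandas 2.3.3, matplotlib 3.10.9 and numpy 2.4.6 (Python 3.11.15).

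UMIs were summed per class and divided by the class total. Comparisons between libraries used the 27040 shared genes, so levels differ slightly from those within a library. The ratio code was tested on simulated data: for 8354 genes it recovered 200 of 200 changed genes. Those counts were Poisson draws with changes larger than the 2-fold limit and no variation between cells or clusters. The test therefore checks the arithmetic only. Members named with values were up to 4 per structural group by highest class CPM, up to 4 per direction and comparison by log2 ratio, and up to 3 per further list. The other members are given by level, for completeness. Members and lists were chosen with earlier results of these data known. Shares were compared after thinning to 1000 UMIs. Alternatives were run for clustering, filters, doublets, naming, pseudocount and scaling.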

Additional observations from a re-analysis of the deposited data

How the results depend on the processing

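No paired analysis was possible because each group is 1 library. Of the main counts and ratios, 185 values under alternatives stayed and 31 moved, where a count moved by over 1.5 times, or from or to 0, and a chain ratio left its 95% binomial interval. These intervals are narrow, so that Col1a1 per Col1a2 in osteoblast-like cells can move and still print as 1.28. Of the log2 ratios of single called members, 1173 stayed past 2-fold, 53 fell within it and 8 reversed. The cause was not tested except where the setting itself changes which genes or cells enter. With clusters named by their best list alone, the odontoblast-like over osteoblast-like count of higher members went from 6 to 2, the counts for P25 over Cxcl12-GFP P6 in pulp-like cells (below, pulp-like cells between ages) became 1 higher and 5 lower (from 0 and 8), and Col1a1 per Col1a2 became 1.28 in osteoblast-like, 1.34 in ligament-like and 1.03 in pulp-like cells. With no filter on low values, more genes are tested: higher members became 11 (odontoblast-like over osteoblast-like), 5 (pulp-like over ligament-like, P25), 10 (pulp-like over follicle or ligament-like, P6) and 2 (P25 over Cxcl12-GFP P6, pulp-like), and lower members became 14 (pulp-like) and 8 (follicle or ligament-like) for P25 over Cxcl12-GFP P6. At resolution 2.0, 5 members were higher in pulp-like over ligament-like cells at P25, 1 in pulp-like cells between ages, Col1a1 per Col1a2 was 1.34 in ligament-like cells and Col4a1 per Col4a2 was 1.09 there (from 1.42). At resolution 0.5, 1 member was higher in pulp-like cells between ages, 6 were lower in Cxcl12-GFP P6 over Cxcl12-creER P6, and Col1a1 per Col1a2 was 1.28 in osteoblast-like and 1.32 in ligament-like cells. With no doublet removal, 3 members were higher in pulp-like cells between ages, 1 was higher and 16 were lower between the P6 libraries, and Col1a1 per Col1a2 was 1.29 in osteoblast-like and 0.643 in pulp-like cells. With at most 10% mitochondrial UMIs, or with CPM over UMIs outside the members, 1 member was higher in pulp-like cells between ages. With Col genes kept among the variable genes, 1 was higher and 17 were lower between the P6 libraries and Col1a1 per Col1a2 was 1.28 in osteoblast-like cells.

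Signs turned for Col11a1 in pulp-like cells between ages (log2 ratio 0.016, best list), and between the P6 libraries for Col11a2 (0.070) and Col14a1 (0.37) at resolution 0.5, Col23a1 (0.56 with at most 10% mitochondrial UMIs, 0.49 with no doublet removal, 0.17 with Col genes kept) and Col26a1 (0.10 with Col genes kept, 0.013 without the cluster of 44 cells). That cluster was left out after seeing the data, and 1 member was then higher. Leaving out cluster 19 of the osteoblast-like class, also chosen after seeing the data, kept both counts within 1.5 times. Scaling to UMIs outside the members moved the median of all genes by -0.14 (pulp-like over ligament-like), -0.13 (connective tissue fibroblast-like over ligament-like) and 0.18 (P25 over Cxcl12-GFP P6, follicle or ligament-like). Odontoblast-like over osteoblast-like could not be computed at resolution 0.5 or 2.0, at most 10% mitochondrial UMIs or with Col genes kept, since no odontoblast-like class of 50 cells was named. Depth limits Cxcl12-creER P6 most, with a median of 1459 UMIs per cell.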
